A study of Danio rerio with 36 samples.

Results

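The genes of the sarcomere, the contractile unit of striated muscle, were compared between translating ribosome affinity purification (TRAP) pulldowns and input RNA of adult AngioTag zebrafish. AngioTag fish, Tg(kdrl:egfp-2a-rpl10a3xHA)y530, carry EGFP and an HA-tagged Rpl10a, a protein of the large ribosomal subunit, under the promoter of kdrl, a vascular endothelial receptor gene, and TRAP collects the RNA that comes down with the tagged ribosomes on anti-HA antibody. Endothelial pulldowns and tissue inputs were sequenced from muscle, skin and whole fish, with 3 pulldown and 3 input libraries for each and 4 adult fish in each replicate. Pulldown and input both came from fish that carried the transgene, and the age of the adults in months is not given in the sources used here. The members are the 59 of 32520 genes in the count table whose symbols start with tnnc, tnni, tnnt, tpm, mylpf, mylz, smyhc, myhz, myom, mybpc, ttn, neb, actc1, tcap or ldb3. They were divided by gene family into 19 genes for large proteins (myosin heavy chains, myosin-binding proteins C, myomesins, titins and nebulins), 37 genes for small proteins (actins, tropomyosins, troponins, myosin light chains and titin cap) and 3 genes placed in neither class (ldb3a, ldb3b and TNNI3K). The classes were not set by measured protein length, and earlier results of these data were known when the genes were chosen.

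In a sarcomere, thick filaments of myosin slide along thin filaments of actin. Titin, among the longest proteins known, spans from the Z-disc to the M-band, nebulin runs along the thin filament, and myosin-binding protein C and myomesin hold the thick filaments in register. Troponin C binds calcium, troponin I blocks the actin-myosin interaction at rest, and troponin T ties both to tropomyosin, which lies along actin. These genes are known as products of muscle fibres and heart muscle cells rather than of endothelium. Some tropomyosin genes are also used outside muscle. The symbol prefixes brought in a few genes of another kind: TNNI3K encodes a kinase that binds troponin I, and nebl encodes nebulette, a shorter relative of nebulin that was kept with its family in the large class.

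Total counts ran from 9202302 to 23504935 in the pulldowns and from 14742611 to 26255588 in the inputs. Endothelial genes checked the pulldown: 21 of 23 endothelial genes tested were enriched in muscle, 21 of 23 in skin and 19 of 22 in whole fish. Over all genes tested, 22.8% were enriched in muscle, 21.5% in skin and 11.3% in whole fish. In muscle, erg (log2 fold change 1.18) and stab2 (0.24) were not called. The gene kdrl, whose promoter drives the transgene, had 616, 609.7 and 1038 CPM in muscle pulldowns, against 15.7, 15.2 and 21.4 CPM in muscle inputs. The whole fish pulldowns stood apart, because a single gene (ENSDARG00000080337) took 53.8% to 76.2% of their counts and the biological coefficient of variation was 0.849 there, against 0.327 in muscle and 0.273 in skin. The columns of skin replicate 2 were assigned by elimination of names. Values without both of its libraries are given where they change the skin call of a named gene. Levels below are CPM, counts relative to library size, scaled by TMM, the trimmed mean of M-values, within a tissue, so levels are compared between pulldown and input of a tissue and not between tissues or between genes. Near-identical copies among the myhz, smyhc, actc1, TNNI2 and ttn genes could share reads, so the split of reads within these families is uncertain. In such bulk libraries, the cell that a read came from is not recorded. Each pulldown was compared with the lysate of its own tissue, and there was no pulldown from adults without the transgene. RNA on tagged ribosomes and RNA that came down without them therefore cannot be told apart.

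Reads on large sarcomere genes, set against reads on small ones within the same library, were many times more frequent in pulldowns than in inputs of all 3 tissues. This ratio needs no scaling between libraries. In muscle, the log2 ratio of reads on the large class to reads on the small class was -1.55, -1.56 and -1.55 in pulldowns, against -5.46, -6.01 and -5.89 in inputs. The 3 muscle pulldowns were thus nearly identical, and each was 15.0-fold to 21.9-fold above the input of its own replicate. In skin, the log2 ratio was 0.10, 0.03 and -0.24 in pulldowns, against -4.77, -5.80 and -4.78 in inputs. The large class thus drew about as many reads as the small class in skin pulldowns, while skin inputs held 27.2 to 55.8 reads on small genes for each read on a large one. The skin ratios were 23.3-fold to 57.2-fold above their inputs. In whole fish, the log2 ratio was 0.85, -0.47 and 0.004 in pulldowns, against -4.96, -4.70 and -4.98 in inputs, a gap of 18.7-fold to 56.0-fold. Pulldown and input did not overlap in any tissue. In muscle pulldowns the 3 genes ttn.1, ttn.2 and neb took 0.998% to 1.37% of all reads, against 0.183% to 0.260% in muscle inputs, and so made up most of the large class there. The 8 myosin heavy chain genes took 0.132% to 0.185% in muscle pulldowns, against 0.0218% to 0.0454% in muscle inputs. Within the same class, myosin-binding protein C genes and myomesin genes had median log2 fold changes of -1.90 and -1.14 in muscle. In muscle libraries, most reads of the small class fell on actc1b, mylpfa, mylz3 and TNNT3 (ENSDARG00000068457). These had 1394456, 868468, 630632 and 419612 reads in muscle input replicate 1. No test was made of the ratio of large to small reads, since it is a score over the members.

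**Figure D1:**
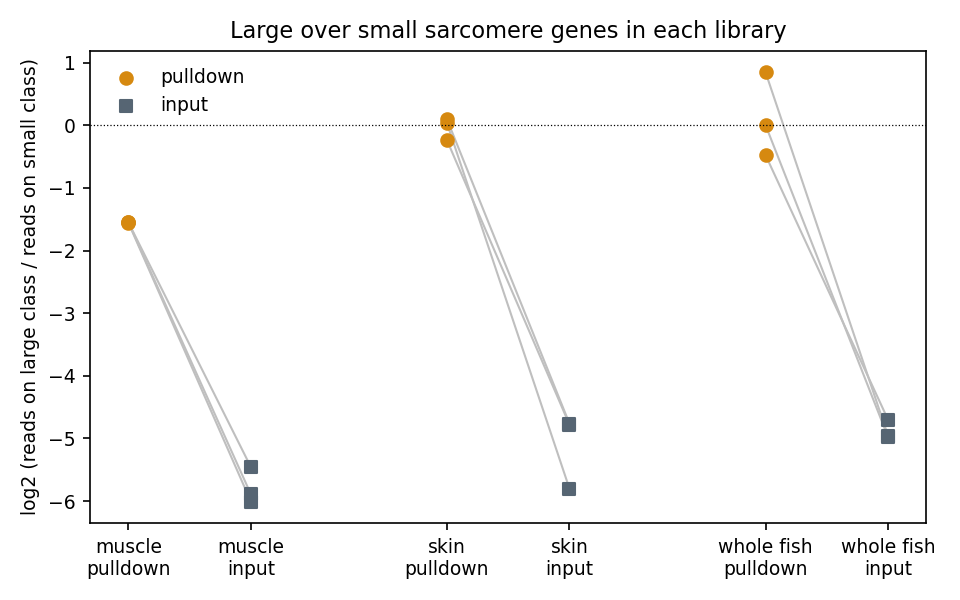
Each point is 1 library, with the log2 ratio of its reads on the 19 large-class sarcomere genes to its reads on the 37 small-class genes on the vertical axis and pulldown and input libraries of muscle, skin and whole fish along the horizontal axis. Lines join libraries with the same replicate number, and every pulldown, from -1.56 to 0.85, lies above every input, from -6.01 to -4.70.

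The share of all reads that fell on the 2 classes moved in different ways between tissues. Large-class genes took 1.25% to 1.60% of reads in muscle pulldowns, against 0.284% to 0.424% in muscle inputs. Small-class genes took 3.66% to 4.69% in muscle pulldowns, against 18.3% to 19.7% in muscle inputs. Muscle pulldowns were thus higher in the share of the large class and lower in that of the small class. In skin, large-class genes took 0.769% to 1.63% in pulldowns, against 0.0562% to 0.0859% in inputs. Small-class genes of skin took 0.907% to 1.59% in pulldowns, against 1.54% to 4.64% in inputs, so that the ranges overlapped. All 59 members together took 1.69% to 3.24% of reads in skin pulldowns, against 1.61% to 4.76% in skin inputs. In whole fish, the shares were 0.136% to 0.538% for the large class in pulldowns, against 0.193% to 0.225% in inputs. The small class took 0.189% to 0.385% in whole fish pulldowns, against 5.86% to 7.11% in whole fish inputs.

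In muscle, small sarcomere genes fell in the pulldown and large ones mostly did not pass the test. Of the 51 members with enough counts to test in muscle, 34 were depleted in the pulldown and 1 was enriched, at an adjusted p under 0.05 and a change of at least 1.2 on the log2 scale, while 21% of all 14849 genes tested were depleted and 22.8% enriched. Among 30 small genes tested, 28 fell and 1 rose, with a median log2 fold change of -3.19. Among 18 large genes tested, 4 fell and none rose, with a median of -0.12, against 0.07 over all genes. With RLE scaling and with DESeq2, 8 large genes fell, and 38 members in all. Among all 14849 genes tested, 3363 fell with RLE scaling and 3354 with DESeq2. Scaled by library size alone, the median of all genes shifted to 1.79, the median of the large class changed sign to 1.66, that of the small class was -1.32, and 14 members were depleted and 11 enriched. Among all 14849 genes tested, 485 were then depleted and 9249 enriched. The distance between the classes depended little on the scaling: the large median exceeded the small one by 3.07, and by 2.74 to 3.18 over all alternatives run. From the CPM ratios of the 3 replicate pairs the distance was 2.70, 3.29 and 2.56.

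The 3 actins tested, both myosin light chain genes and TNNC2 had the lowest log2 fold changes in muscle. The actin gene actc1b (ENSDARG00000099197), which encodes an alpha-actin of thin filaments, had 5598, 6574 and 6612 CPM in muscle pulldowns, against 90571, 132239.5 and 148629.6 CPM in muscle inputs. Every pulldown lay far below every input, a 19.8-fold reduction (log2 fold change -4.31 ± 0.43 (SE), adjusted p = 3.3e-05, one-sided edgeR quasi-likelihood test with Benjamini-Hochberg adjustment, as for all adjusted p within a tissue). Its relative actc1a (ENSDARG00000042535) had 5.36, 3.05 and 2.67 CPM in muscle pulldowns, against 113, 76.3 and 101 CPM in muscle inputs. Of all members tested in muscle, actc1a had the lowest value, with groups far apart (log2 fold change -4.71 ± 0.35 (SE), adjusted p = 1.2e-05). The regulatory light chain gene mylpfa (ENSDARG00000053254) had 3350.0, 4147 and 3898 CPM in muscle pulldowns, against 56407, 87101 and 97597 CPM in muscle inputs. All 3 pulldowns lay below all 3 inputs (log2 fold change -4.40 ± 0.43 (SE), adjusted p = 2.9e-05). The fast essential light chain gene mylz3 (ENSDARG00000017441) had 2084, 2553 and 2294 CPM in muscle pulldowns, against 40959.9, 64996 and 66101 CPM in muscle inputs, and the groups again did not overlap (log2 fold change -4.63 ± 0.42 (SE), adjusted p = 2.1e-05).

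Every troponin I gene that could be tested in muscle, 12 of 13, was depleted, as were most other troponins. TNNC2 (ENSDARG00000070835), the calcium-binding troponin of fast fibres, had 664, 839 and 525 CPM in muscle pulldowns, against 11861, 18938 and 17398 CPM in muscle inputs. It fell 23.8-fold (log2 fold change -4.57 ± 0.40 (SE), adjusted p = 1.9e-05). One of 6 genes with the symbol TNNI2, fast troponin I (ENSDARG00000013752), had 667, 985 and 660.1 CPM in muscle pulldowns, against 8669.8, 15114 and 12245 CPM in muscle inputs, again with no overlap (log2 fold change -3.96 ± 0.39 (SE), adjusted p = 3.1e-05). The fast troponin T gene TNNT3 (ENSDARG00000068457), which links the troponin complex to tropomyosin, had 3680.2, 4992 and 4035 CPM in muscle pulldowns, against 27254, 33748 and 41323 CPM in muscle inputs. Again every pulldown was below every input (log2 fold change -3.01 ± 0.37 (SE), adjusted p = 9.8e-05). TNNT2 (ENSDARG00000100694), named for cardiac troponin T, was the one troponin tested that did not pass (-0.96 ± 0.35; a value with ± alone is a log2 fold change with its SE). The remaining small genes included tcap (ENSDARG00000007344), whose product caps titin at the Z-disc, with 333, 286 and 361 CPM in muscle pulldowns, against 4028, 4486 and 9084 CPM in muscle inputs. No tcap pulldown came near an input (log2 fold change -4.17 ± 0.42 (SE), adjusted p = 3.3e-05). Scaled by library size alone, 13 small genes were depleted in muscle, against 28 in the fit reported, so many of these calls depended on the scaling. TNNC2, TNNI2 (ENSDARG00000013752), TNNT3 (ENSDARG00000068457) and tcap kept their calls under it, while tnni4a lost its call (-1.09).

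Tropomyosins split. Of the 4 tested in muscle, tpm1, tpm2 and tpm3 fell and tpm4a rose. tpm2 (ENSDARG00000104682) had 609, 1279 and 1048 CPM in muscle pulldowns, against 2172, 3765 and 4359 CPM in muscle inputs, without overlap (log2 fold change -1.81 ± 0.39 (SE), adjusted p = 0.00313). When library size alone set the scale, tpm2 stood at -0.03 and no longer passed. By contrast tpm4a (ENSDARG00000023963), a tropomyosin gene whose family is also used outside muscle, had 556, 372 and 1058 CPM in muscle pulldowns, against 68.3, 51.7 and 91.0 CPM in muscle inputs. It was the only member enriched in muscle and was called under every alternative (log2 fold change 3.23 ± 0.43 (SE), adjusted p = 1.3e-04).

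No titin, nebulin or myosin heavy chain gene passed in either direction in muscle, a result that depended on the scaling. Scaled by library size alone, which put the median of all genes at 1.79, ttn.2 (2.58), ttn.1 (2.42), neb (2.24), myhz1.1l (2.55), myhz1.1 (2.22), smyhc1 (2.79) and smyhc2 (2.11) passed as higher, as did myhz2 (1.48) and smyhc3 (1.84), whose sign changed. Under that scaling 9249 of all 14849 genes tested in muscle passed as higher. With RLE scaling, myhz1.2 (-1.25) and myhz1.3 (-1.22) passed as lower, and they did so with DESeq2 too. ttn.2 (ENSDARG00000028213), a titin gene, had 2555, 3495 and 3118 CPM in muscle pulldowns, against 1616, 1633 and 1817 CPM in muscle inputs. The pulldowns were all higher than the inputs, but the difference stayed under the fold threshold (log2 fold change 0.86 ± 0.28 (SE), adjusted p = 0.025). The neighbouring titin gene ttn.1 (ENSDARG00000000563) had 2267, 2952 and 2486 CPM in muscle pulldowns, against 1457, 1599 and 1763 CPM in muscle inputs, which also left no overlap (log2 fold change 0.68 ± 0.28 (SE), adjusted p = 0.0596). For neb (ENSDARG00000032630), the nebulin gene, the levels were 708, 855 and 753 CPM in muscle pulldowns, against 518, 605 and 501 CPM in muscle inputs. Its difference was the smallest of the 3 giants (log2 fold change 0.51 ± 0.26 (SE), adjusted p = 0.108). The fast myosin heavy chain gene myhz1.1l (ENSDARG00000102414) had 272, 410.3 and 929.8 CPM in muscle pulldowns, against 184, 192 and 537 CPM in muscle inputs, with overlapping groups (log2 fold change 0.82 ± 0.53 (SE), adjusted p = 0.202). The slow myosin heavy chain gene smyhc2 (ENSDARG00000103969) had 259, 247 and 173 CPM in muscle pulldowns, against 82.1, 198 and 298 CPM in muscle inputs. Here too the groups overlapped (log2 fold change 0.23 ± 0.41 (SE), adjusted p = 0.632). Over all 8 myosin heavy chain genes the log2 fold change ran from -1.18 to 0.85, with a median of 0.10.

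The 4 large genes that fell in muscle were mybpc3, mybpc2b, MYBPC2 and myom1a. The myomesin gene MYOM1 (-1.14 ± 0.23) missed the fold threshold. It passed as lower with RLE scaling (-1.23), with DESeq2 (-1.23) and in a joint fit of all libraries (-1.21). mybpc2b (ENSDARG00000021265), a fast myosin-binding protein C gene, had 293, 218 and 177 CPM in muscle pulldowns, against 1427, 874 and 1235 CPM in muscle inputs. It fell 5.14-fold (log2 fold change -2.36 ± 0.32 (SE), adjusted p = 1.9e-04), and stood at -0.65 without passing when scaled by library size alone. mybpc1 (ENSDARG00000045560), the slow form, went the other way, with 59.2, 73.0 and 42.0 CPM in muscle pulldowns, against 20.3, 26.5 and 30.5 CPM in muscle inputs. Its difference missed the fold threshold by a little, and passed at 2.97 when scaled by library size alone (log2 fold change 1.17 ± 0.27 (SE), adjusted p = 0.00415). myom1a (ENSDARG00000061249), a myomesin gene of the M-band, had 52.7, 67.0 and 76.2 CPM in muscle pulldowns, against 165, 188 and 191 CPM in muscle inputs (log2 fold change -1.47 ± 0.24 (SE), adjusted p = 6.3e-04), and turned to 0.25 with scaling by library size alone. Of the Z-disc genes in neither class, ldb3b (ENSDARG00000099974), which encodes a PDZ and LIM domain protein bound to alpha-actinin, had 218, 224 and 198 CPM in muscle pulldowns, against 2196, 3221 and 2877 CPM in muscle inputs and fell clearly (log2 fold change -3.70 ± 0.31 (SE), adjusted p = 1.7e-05).

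**Figure D2:**
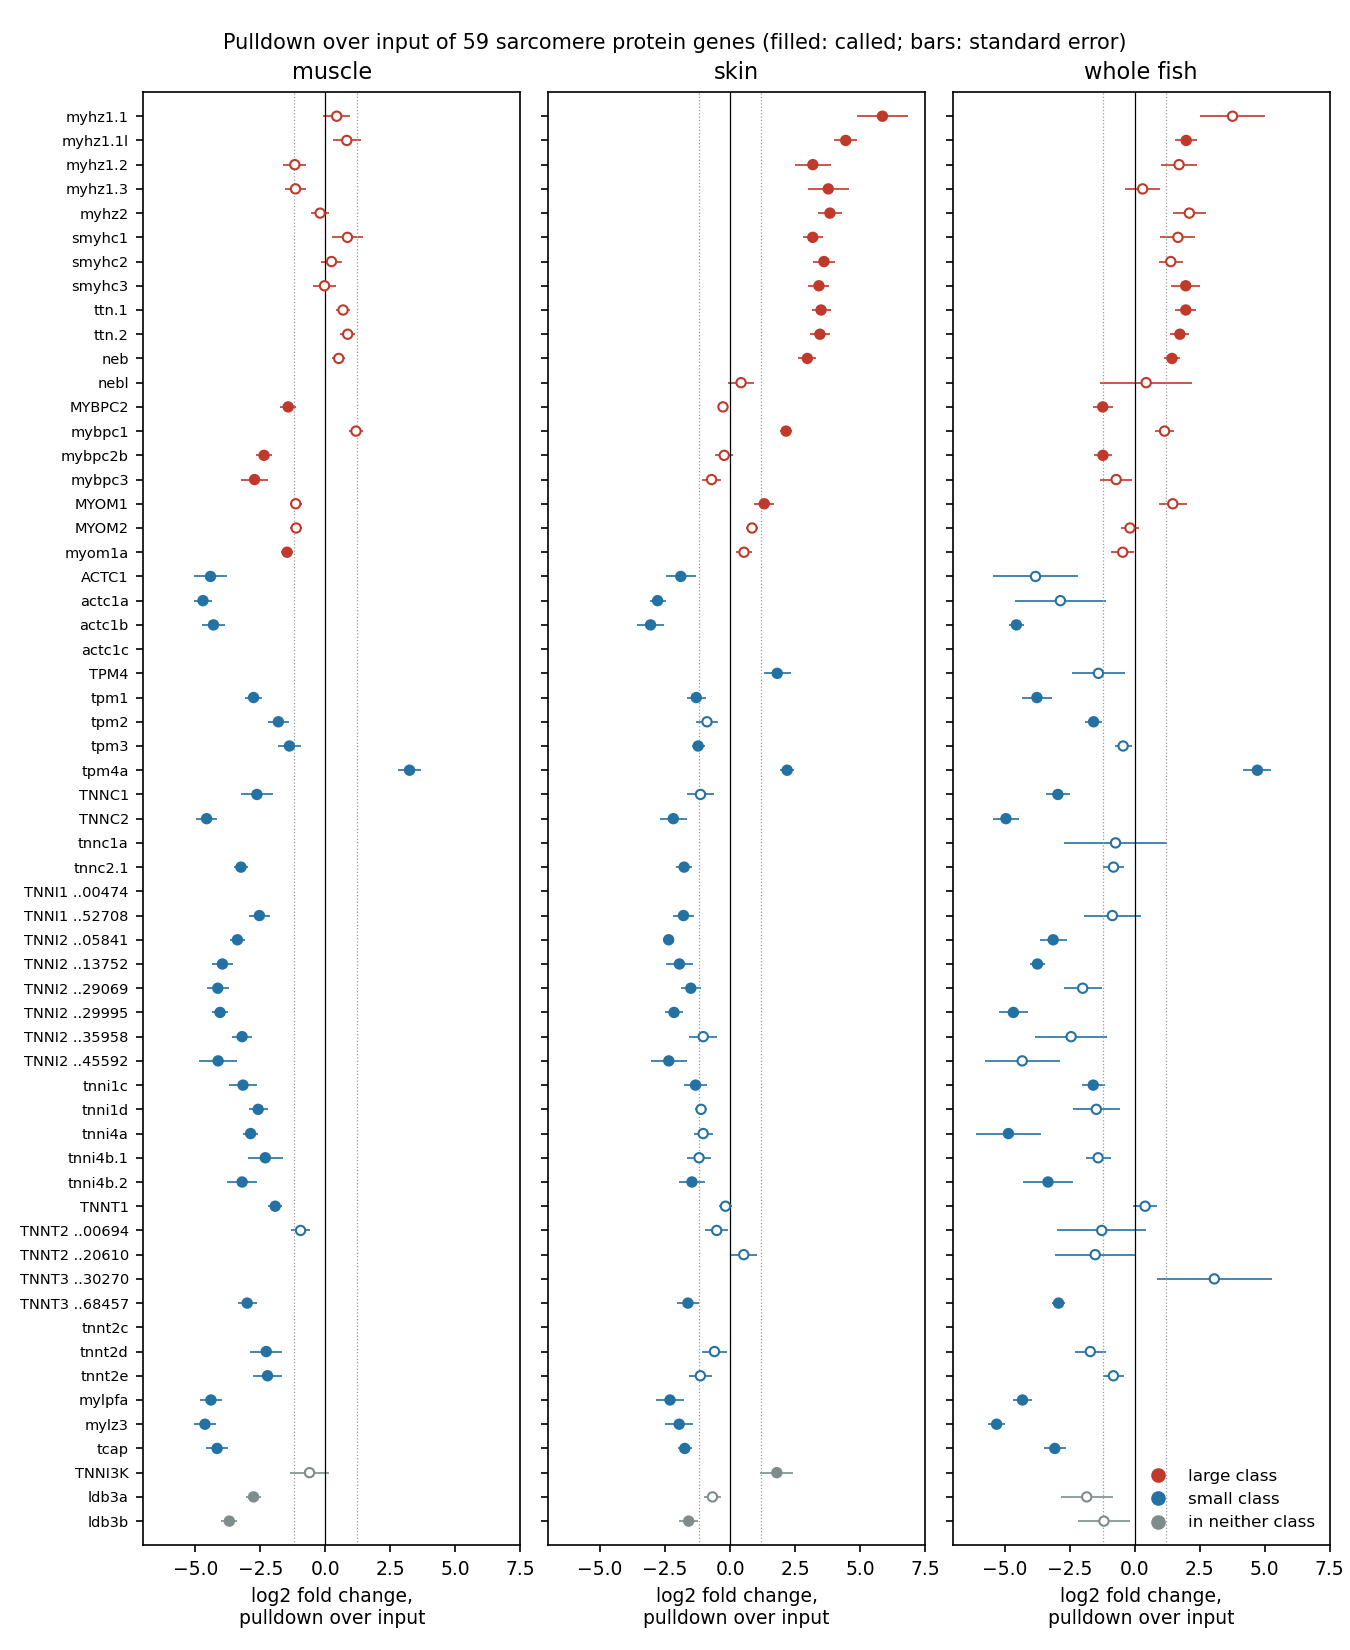
Log2 fold change of pulldown over input (horizontal axis) for each of the 59 sarcomere protein genes (vertical axis, by class and family; genes that share a symbol carry the last 5 digits of their ID) in muscle, skin and whole fish, with bars of 1 standard error, filled points for genes called and dotted lines at the fold threshold. Large-class genes lie on both sides of 0 in muscle (-2.73 to 1.17, median -0.12) and mostly above 0 in skin (median 3.18), with a median between these in whole fish (1.43), while most small-class genes lie below 0.

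In skin, most large sarcomere genes rose in the pulldown while most small ones fell. Of 54 members tested, 20 were depleted and 16 enriched, while 18.2% of all 17153 genes tested were depleted and 21.5% enriched. The 19 large genes comprised 13 that rose and none that fell, with a median log2 fold change of 3.18, against 0.04 over all genes. The 32 small genes tested comprised 19 that fell and 2 that rose, with a median of -1.40. The distance between the class medians was 4.58, and 11 of the 19 large genes lay above every small gene. From the CPM ratios of the 3 replicate pairs the distance was 4.33, 4.77 and 3.41. Scaled by library size alone, the median of all genes shifted to 0.87, and 20 members were enriched and 4 depleted. Among all 17153 genes tested, 7094 were then enriched and 783 depleted. With a minimum of 10 counts in every library, 46 members were tested in skin, and 11 were enriched and 17 depleted. Among all 13967 genes tested with that minimum, 2725 were enriched and 2306 depleted.

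All 8 myosin heavy chain genes rose in skin pulldowns, from 3.18 to 5.86 on the log2 scale. myhz1.1l had 1641, 2331 and 692 CPM in skin pulldowns, against 69.9, 63.2 and 80.6 CPM in skin inputs. Even the lowest pulldown lay far above the highest input, and the fitted rise was 21.8-fold (log2 fold change 4.45 ± 0.44 (SE), adjusted p = 1.7e-05). The slow gene smyhc2 had 1682, 1732 and 689 CPM in skin pulldowns, against 158, 102 and 76.0 CPM in skin inputs, also far apart (log2 fold change 3.61 ± 0.42 (SE), adjusted p = 5.0e-05). Its relatives smyhc1 (ENSDARG00000099959) and smyhc3 (ENSDARG00000114031) rose by 3.18 and 3.42 on the log2 scale, and myhz2 (ENSDARG00000012944) by 3.84. The other 3 fast genes rested on few reads in the inputs. They entered the test through their higher pulldown reads, so their rise was partly set by the expression filter. With a minimum of 10 counts in every library these 3 were not tested, and 10 large genes rose in skin. For myhz1.1 (ENSDARG00000067990), whose value was the highest of all members (log2 fold change 5.86 ± 0.97 (SE), adjusted p = 4.5e-04), the reads numbered 67, 357 and 46 in pulldowns, against 0, 1 and 7 in inputs. For myhz1.2 (ENSDARG00000067995) they numbered 51, 93 and 20 in pulldowns, against 1, 12 and 6 in inputs (log2 fold change 3.18 ± 0.68 (SE), adjusted p = 0.00228). myhz1.3 (ENSDARG00000067997) had 4.21, 30.2 and 4.46 CPM in skin pulldowns, against 0.400, 1.45 and 0.869 CPM in skin inputs (log2 fold change 3.78 ± 0.79 (SE), adjusted p = 0.00198), with pulldown replicate 2 well above replicates 1 and 3. Leaving out 1 library moved myhz1.3 between 2.20 and 4.23 and myhz1.1 between 4.48 and 7.87, with no call lost.

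Titin and nebulin rose in skin by a similar amount. ttn.2 had 2827, 3238 and 1772 CPM in skin pulldowns, against 327, 230.2 and 158 CPM in skin inputs. These pulldown levels were 11-fold the input level (log2 fold change 3.46 ± 0.38 (SE), adjusted p = 3.0e-05). ttn.1 had 2552, 2978 and 1776 CPM in skin pulldowns, against 293, 212 and 142 CPM in skin inputs, close to ttn.2 in each library (log2 fold change 3.50 ± 0.36 (SE), adjusted p = 2.3e-05). For neb the levels were 534, 730.0 and 369.7 CPM in skin pulldowns, against 79.9, 85.2 and 43.4 CPM in skin inputs, and no pulldown came near an input (log2 fold change 2.97 ± 0.35 (SE), adjusted p = 4.6e-05). Replicate 3 was the lowest of both pulldown and input for all 3 genes. mybpc1 rose as well, with 36.6, 68.5 and 56.6 CPM in skin pulldowns, against 11.7, 12.8 and 11.8 CPM in skin inputs (log2 fold change 2.15 ± 0.25 (SE), adjusted p = 4.1e-05). The other myosin-binding protein C genes did not pass: mybpc2b, for one, had 40.7, 67.1 and 48.5 CPM in skin pulldowns, against 54.4, 95.8 and 32.5 CPM in skin inputs. MYOM1 (ENSDARG00000104836), a myomesin gene, had 15.4, 13.5 and 7.53 CPM in skin pulldowns, against 6.29, 6.02 and 2.41 CPM in skin inputs, a rise that just passed (log2 fold change 1.31 ± 0.39 (SE), adjusted p = 0.0125) and was lost without pulldown replicate 1 or without input replicate 3, with values from 0.95 to 1.51 over the libraries left out. myom1a, with 0.54 ± 0.32 on the log2 scale, did not pass.

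Among the small genes of skin, all 3 actins tested, both light chains and 11 of 21 troponins fell. Several of these calls were lost with scaling by library size alone: mylpfa (-1.47), mylz3 (-1.12), TNNC2 (-1.36), TNNT3 (ENSDARG00000068457, -0.79), 2 TNNI2 genes (ENSDARG00000013752, -1.11, and ENSDARG00000029069, -0.64), tcap (-0.91) and ldb3b (-0.75). In a joint fit of all libraries, actc1a (adjusted p = 0.098), ldb3b (adjusted p = 0.13) and TNNI2 (ENSDARG00000029069, adjusted p = 0.094) did not pass. actc1b had 1256, 2314 and 1167 CPM in skin pulldowns, against 11859, 21506 and 6082 CPM in skin inputs. It was the lowest member in skin (log2 fold change -3.06 ± 0.51 (SE), adjusted p = 5.4e-04). actc1a had 5.66, 5.36 and 9.76 CPM in skin pulldowns, against 50.8, 32.6 and 60.4 CPM in skin inputs, again without overlap (log2 fold change -2.79 ± 0.30 (SE), adjusted p = 4.6e-05). A TNNI2 gene (ENSDARG00000005841) had the third lowest value, with 7.55, 6.64 and 6.84 CPM in skin pulldowns, against 37.0, 33.2 and 38 CPM in skin inputs. Each group had little spread (log2 fold change -2.36 ± 0.20 (SE), adjusted p = 1.4e-05). The light chain gene mylpfa had 1002, 2509.6 and 868 CPM in skin pulldowns, against 5901, 12006 and 3799.7 CPM in skin inputs (log2 fold change -2.31 ± 0.53 (SE), adjusted p = 0.00348). TNNC2 had 172, 351 and 191 CPM in skin pulldowns, against 726, 2060.5 and 458 CPM in skin inputs, where each pulldown lay below each input (log2 fold change -2.18 ± 0.51 (SE), adjusted p = 0.00407). TNNT3 (ENSDARG00000068457) had 842, 1067 and 799 CPM in skin pulldowns, against 2281, 4702 and 1346 CPM in skin inputs, and its call was lost without input replicate 2, or without both libraries of replicate 2, where the change was -1.16 (log2 fold change -1.62 ± 0.42 (SE), adjusted p = 0.00705 with all libraries). Input replicate 2 was the highest input for actc1b, mylpfa, TNNC2 and TNNT3. tcap had 185, 217 and 148 CPM in skin pulldowns, against 637, 737 and 466 CPM in skin inputs (log2 fold change -1.74 ± 0.27 (SE), adjusted p = 3.0e-04), and ldb3b 78.9, 108 and 55.8 CPM in skin pulldowns, against 252, 357 and 122.8 CPM in skin inputs (log2 fold change -1.59 ± 0.37 (SE), adjusted p = 0.00388). Both were lower in every pulldown than in every input.

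The 2 small genes that rose in skin were both tropomyosins of the tpm4 kind. tpm4a had 331, 291 and 387 CPM in skin pulldowns, against 53.9, 97.4 and 69.0 CPM in skin inputs, well apart (log2 fold change 2.19 ± 0.27 (SE), adjusted p = 6.4e-05). TPM4 (ENSDARG00000019128) was barely detected, with 12, 13 and 17 reads in pulldowns, against 4, 4 and 4 reads in inputs. Its call (log2 fold change 1.81 ± 0.52 (SE), adjusted p = 0.0109) was lost without pulldown replicate 3, input replicate 2 or input replicate 3, where its change ran from 1.62 to 1.96 over the libraries left out, and without both libraries of replicate 2 (1.80). tpm2 did not pass in skin, with 907, 404 and 432 CPM in skin pulldowns, against 1498, 1146 and 581 CPM in skin inputs. The kinase gene TNNI3K (ENSDARG00000086933), in neither class, was also called higher (log2 fold change 1.80 ± 0.63 (SE), adjusted p = 0.0283), on 19, 21 and 19 reads in pulldowns, against 6, 10 and 1 reads in inputs. That call was lost when any library other than input replicate 2 was left out, with values from 1.22 to 2.29. In the joint fit neither TPM4 nor TNNI3K passed (adjusted p = 0.11 and 0.16). Both entered the test in skin through their higher pulldown reads, so their rise was partly set by the expression filter.

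**Figure D3:**
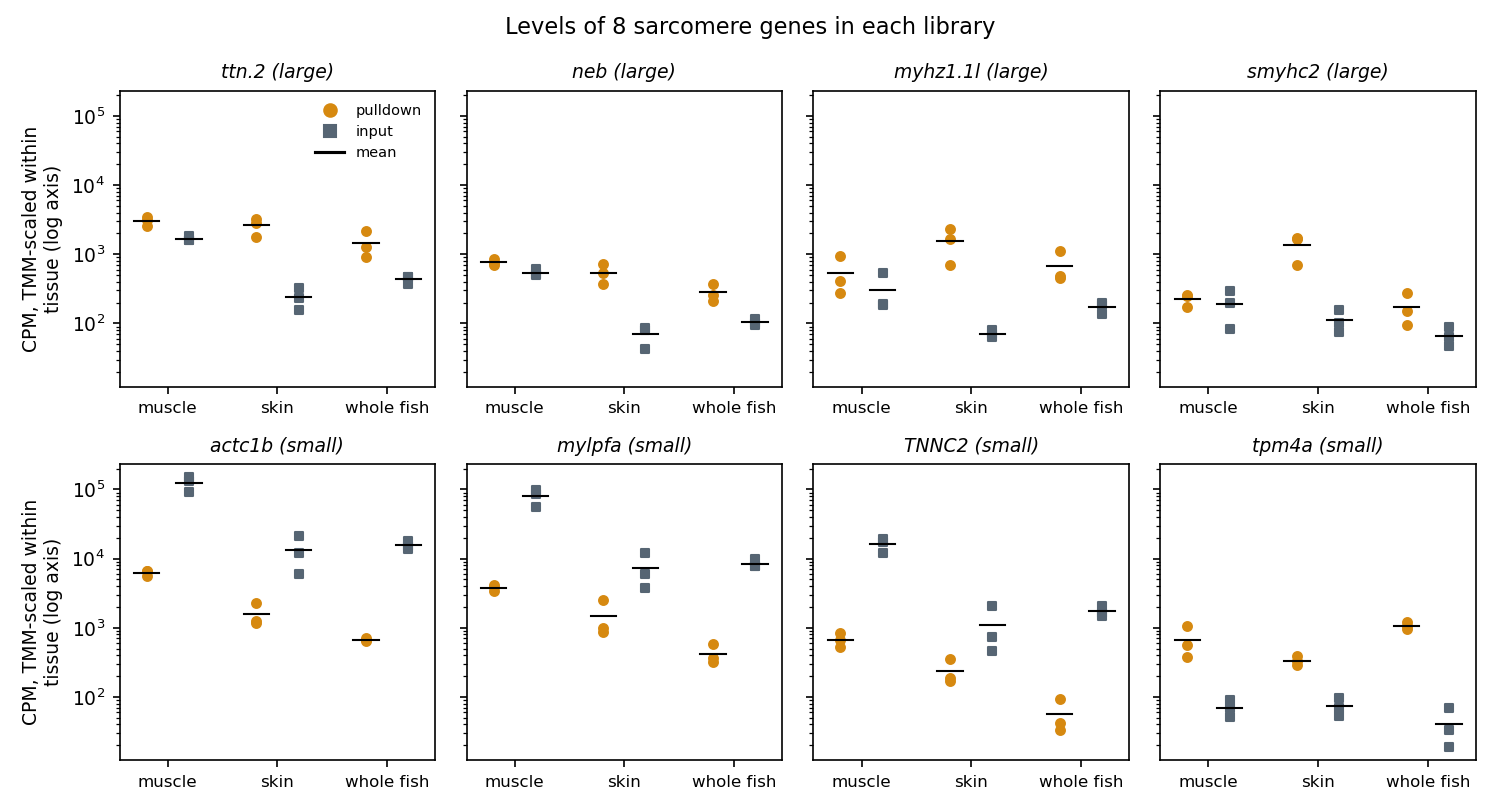
CPM scaled by TMM within each tissue, on a log axis, in the 3 pulldown and 3 input libraries of muscle, skin and whole fish for 4 large-class genes (upper row) and 4 small-class genes (lower row), with a line at each group mean. ttn.2, neb, myhz1.1l and smyhc2 stand far above input in skin and near it in muscle, actc1b, mylpfa and TNNC2 lie below input in all 3 tissues, and tpm4a lies above input in all 3.

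In whole fish, 15 of 34 small genes tested fell and 5 of 19 large ones rose. Of 55 members tested, 17 were depleted and 6 enriched, while 15.5% of all 16923 genes tested were depleted and 11.3% enriched. The small class also held 1 gene that rose and had a median log2 fold change of -2.22. The large class held 2 genes that fell and had a median of 1.43, against -0.09 over all genes. The large median exceeded the small one by 3.66, and by 4.85, 3.58 and 3.69 from the CPM ratios of the 3 replicate pairs. The count of enriched members dropped to 1 without any 1 of the 3 inputs, when ttn.1 (1.47 to 2.10 over the libraries left out), ttn.2 (1.32 to 1.86), myhz1.1l (1.44 to 2.07), neb (1.17 to 1.49) and smyhc3 all lost their calls. Enriched calls over all genes dropped as well, from 1916 to 792, 963 and 885 without input replicates 1, 2 and 3. Under library-size scaling 26 members were depleted and 1 enriched, with the median of all genes at -1.01. Among all 16923 genes tested, 4049 were depleted and 589 enriched under that scaling.

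Among the large genes of whole fish, ttn.1, ttn.2, neb, myhz1.1l and smyhc3 were enriched. ttn.1 had 2606, 993 and 1378 CPM in whole fish pulldowns, against 346, 450.3 and 478 CPM in whole fish inputs. All pulldowns exceeded all inputs (log2 fold change 1.96 ± 0.40 (SE), adjusted p = 0.0129). ttn.2 had 2179.9, 919.6 and 1288 CPM in whole fish pulldowns, against 371, 475 and 469.7 CPM in whole fish inputs, much like ttn.1 (log2 fold change 1.74 ± 0.36 (SE), adjusted p = 0.0142). neb had 374, 211 and 261 CPM in whole fish pulldowns, against 94.9, 101 and 117 CPM in whole fish inputs (log2 fold change 1.43 ± 0.30 (SE), adjusted p = 0.0131), and lost its call also without pulldown replicate 1, at 1.17. myhz1.1l had 1101, 452 and 487 CPM in whole fish pulldowns, against 183, 198 and 136 CPM in whole fish inputs, with pulldown replicate 1 highest as for both titin genes (log2 fold change 1.98 ± 0.42 (SE), adjusted p = 0.0142). smyhc3 had 22.1, 11.8 and 18.8 CPM in whole fish pulldowns, against 4.03, 6.24 and 3.22 CPM in whole fish inputs (log2 fold change 1.96 ± 0.56 (SE), adjusted p = 0.0446). The smyhc3 call was lost with the replicate number as a block (adjusted p = 0.17), with other scalings and filters, and without any library but pulldown replicate 2, with values from 1.71 to 2.24. myhz1.1 had the second highest log2 fold change of all members but did not pass, and its pulldowns spread from 4.29 to 221 CPM (log2 fold change 3.76 ± 1.26 (SE), adjusted p = 0.0748). It passed with DESeq2 (3.55) and in the joint fit (3.37). So did myhz2 (1.92 and 1.69), which stood at 2.10 without passing in the fit reported. With DESeq2 8 large genes were enriched, as were 2634 of all 16923 genes tested. mybpc2b, one of the 2 large genes that fell with MYBPC2, had 64.2, 49.7 and 50.2 CPM in whole fish pulldowns, against 91.1, 112 and 179.8 CPM in whole fish inputs (log2 fold change -1.22 ± 0.34 (SE), adjusted p = 0.0335). With the replicate number as a block neither passed (mybpc2b at -1.17, adjusted p = 0.073), and mybpc2b was also lost without input replicate 2 or 3, with values from -1.60 to -0.93 over the libraries left out.

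The lowest log2 fold change of any member in any tissue was that of a small gene in whole fish. mylz3 had 184, 227 and 149.8 CPM in whole fish pulldowns, against 7103, 6652 and 8493 CPM in whole fish inputs. That was a 39.7-fold reduction (log2 fold change -5.31 ± 0.32 (SE), adjusted p = 0.00293). TNNC2 had 93.1, 33.7 and 41.4 CPM in whole fish pulldowns, against 1622, 1501 and 2081 CPM in whole fish inputs, where the inputs lay close together and the pulldowns far below them (log2 fold change -4.95 ± 0.49 (SE), adjusted p = 0.00471). actc1b had 661, 713 and 651 CPM in whole fish pulldowns, against 13895, 15339.8 and 18182 CPM in whole fish inputs, with little spread in either group (log2 fold change -4.55 ± 0.29 (SE), adjusted p = 0.00293). mylpfa (log2 fold change -4.31 ± 0.35 (SE), adjusted p = 0.00368), TNNI2 (ENSDARG00000013752; -3.74 ± 0.27), TNNT3 (ENSDARG00000068457; -2.93 ± 0.26), tcap (-3.07 ± 0.41) and tpm2 (-1.58 ± 0.32) also fell. tnni4a (ENSDARG00000099870), a troponin I gene, had 0.335, 0 and 0.236 CPM in whole fish pulldowns, against 9.41, 3.48 and 4.5 CPM in whole fish inputs. Its value (log2 fold change -4.86 ± 1.24 (SE), adjusted p = 0.0247) rested on few reads, and did not pass with the replicate number as a block (adjusted p = 0.066) or without any 1 of the inputs, with values from -5.41 to -4.44. tpm4a again rose, with 952, 1224 and 1048 CPM in whole fish pulldowns, against 69.6, 19.1 and 33.9 CPM in whole fish inputs (log2 fold change 4.72 ± 0.54 (SE), adjusted p = 0.00123). A TNNT3 gene of low counts (ENSDARG00000030270) had a high log2 fold change of 3.06 ± 2.22 that rested on pulldown replicate 2 alone, with 124 reads there and 0 in the other pulldowns, against 5, 14 and 12 in inputs.

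Across tissues, 12 members were depleted in all 3: actc1b, mylpfa, mylz3, tcap, tpm1, TNNC2, tnni1c, tnni4b.2, TNNT3 (ENSDARG00000068457) and 3 of the TNNI2 genes. Over all genes tested, 21% fell in muscle, 18.2% in skin and 15.5% in whole fish, and the share called in all 3 was not computed. The skin call of TNNI2 (ENSDARG00000013752) was lost without skin input replicate 2, with values from -2.41 to -1.18. Scaled by library size alone, 4 members were depleted in skin, as were 783 of all 17153 genes tested. The skin calls of mylpfa, mylz3, tcap, TNNC2, TNNT3 (ENSDARG00000068457) and TNNI2 (ENSDARG00000013752) were then lost. tpm4a was the one member enriched in all 3. No member was enriched in one tissue and depleted in another. The order of the log2 fold changes was alike between muscle and skin over the 51 members tested in both (Pearson's r = 0.87, Spearman's rho = 0.91), and between muscle and whole fish over 50 (r = 0.90, rho = 0.88). These points are genes of a few families that share reads and libraries, and are not independent. Every member tested in muscle had a higher ratio in skin except tpm4a.

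The difference between the 2 organs was then tested directly, as the log2 pulldown-over-input ratio in muscle minus that in skin. Of 54 members tested, 34 had a lower ratio in muscle than in skin and none a higher one, while 11.4% of all 18669 genes tested were called lower in muscle and 12.4% higher. Leaving out 1 library gave 23 to 31 members lower in muscle and none higher. Over all genes, these fits gave 1126 to 2291 lower in muscle and 1995 to 2350 higher. The median difference was -2.50 over 19 large genes, of which 17 were called, and -1.74 over 32 small genes, of which 15 were called, against -0.24 over all genes. The 2 large genes not called were mybpc1 (-1.02 ± 0.37 (SE), adjusted p = 0.0553), which passed with the replicate number as a block (adjusted p = 0.031), and nebl. With library size as the only scaling, the median over all genes shifted to 0.68. Among all 18669 genes tested, 334 were then lower in muscle and 5143 higher. Of the members, this scaling left 15 lower in muscle and made tpm4a higher (1.9). Calls lost in this way included mybpc2b (-1.26), myom1a (-1.14), smyhc1 (-1.23), mylpfa (-1.15), TNNC2 (-1.42) and actc1a (-1.03). With 1 library left out, 7 to 13 small genes were called lower in muscle. The call of TNNI2 (ENSDARG00000013752) was lost in 11 of these 12 fits. Calls of mylpfa and TNNI2 (ENSDARG00000005841) were lost in 9, that of the large gene smyhc1 in 8 and that of TNNC2 in 6.

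Fast myosin heavy chains differed most between muscle and skin. myhz1.1 stood at 0.43 in muscle, against 5.86 in skin, a difference of -5.43 ± 1.2 (SE), adjusted p = 0.00484. For myhz1.3 it was -4.95 ± 0.95 (SE), adjusted p = 0.0021, and for myhz1.2 -4.38 ± 0.85 (SE), adjusted p = 0.00215, both on few reads in skin inputs. Leaving out 1 library moved the difference of myhz1.1 between -7.31 and -4.06 and that of myhz1.3 between -5.33 and -3.38, with no call lost. Better covered was myhz1.1l, at 0.82 in muscle and 4.45 in skin, with a difference of -3.65 ± 0.74 (SE), adjusted p = 0.00289. myhz2 differed by -4.07 ± 0.62 (SE), adjusted p = 4.7e-04. The slow genes smyhc3 and smyhc2 differed by -3.48 and -3.41 on the log2 scale. ttn.1 differed by -2.86 ± 0.46 (SE), adjusted p = 6.3e-04, and neb by -2.49 ± 0.43 (SE), adjusted p = 0.00101. Among small genes mylz3, at -4.63 in muscle and -1.96 in skin, differed by -2.70 ± 0.74 (SE), adjusted p = 0.0157, and its call was lost without skin input replicate 1 (-2.41). TNNI2 (ENSDARG00000029069) differed by -2.67 ± 0.60 (SE), adjusted p = 0.00544. actc1b did not pass (-1.28 ± 0.72 (SE), adjusted p = 0.211), nor did tpm4a (0.99 ± 0.52 (SE), adjusted p = 0.177). With a block for each lysate, an alternative added after seeing the data, both passed: actc1b was lower in muscle (-1.38, adjusted p = 0.0076) and tpm4a higher (0.87, adjusted p = 0.021). TNNT3 (ENSDARG00000068457; -1.60), tpm2 (-0.98), mybpc1 (-1.01) and TNNI3K (-2.80) also became lower in muscle in that fit.

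**Figure D4:**
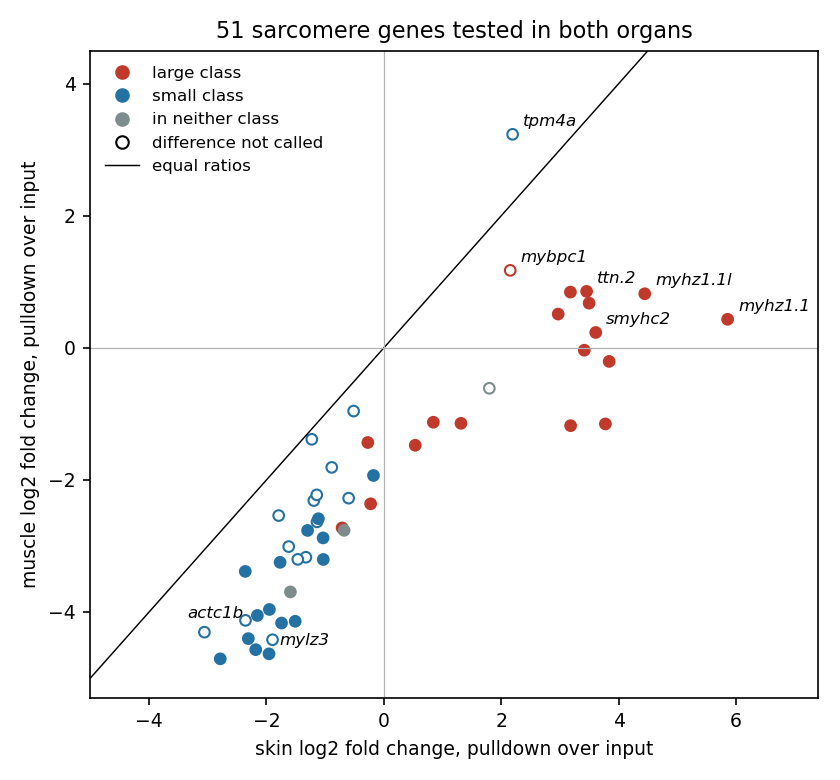
Log2 fold change of pulldown over input in muscle (vertical axis) against that in skin (horizontal axis) for the 51 sarcomere genes tested in both organs, coloured by class, with filled points where the difference between the organs was called and a line of equal ratios. All points but tpm4a lie below the line, and the large-class genes called lie up to 5.43 below it.

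Muscle genes outside the symbol rule were followed by lists. For comparison, 21% of all genes tested fell and 22.8% rose in muscle, 18.2% and 21.5% in skin, and 15.5% and 11.3% in whole fish. Counts in this list and the lists that follow are to be read beside these shares. Of 34 other sarcomere and Z-disc genes found in the table, 28 were tested in muscle, and 15 fell and 2 rose, with a median of -1.57. In skin 10 rose and 7 fell of 29, and in whole fish 3 rose and 13 fell of 32. The highest was obscnb (ENSDARG00000022101), an obscurin gene for a giant protein around the myofibril, with 44.0, 60.2 and 43.8 CPM in muscle pulldowns, against 13.9, 16.1 and 19.4 CPM in muscle inputs (log2 fold change 1.58 ± 0.24 (SE), adjusted p = 3.3e-04). It rose in skin (3.27 ± 0.35) and whole fish (2.80 ± 0.47) as well. Its relatives obscna (-0.05 ± 0.76), obsl1a (-0.20 ± 0.35) and obsl1b (0.71 ± 0.23) did not pass in muscle, nor did the filamin gene flnca (-0.23 ± 0.45). These too were named after their values were seen. The lowest was myoz1b (ENSDARG00000071445), a gene for myozenin, a small Z-disc protein, with 3.27, 2.90 and 1.2 CPM in muscle pulldowns, against 80.5, 114 and 52.5 CPM in muscle inputs (log2 fold change -5.05 ± 0.45 (SE), adjusted p = 2.0e-05). myl1 (ENSDARG00000014196), a fast light chain gene named here after its values were seen, fell in muscle (-4.91 ± 0.37), skin (-2.05 ± 0.47) and whole fish (-4.90 ± 0.56).

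Excitation-contraction coupling genes, which release and take up calcium, showed 14 of 18 depleted and none enriched in muscle, 6 depleted and 3 enriched of 18 in skin, and 7 depleted and 2 enriched of 19 in whole fish. Their medians were -2.75 in muscle, -1.06 in skin and -1.48 in whole fish. pvalb2 (ENSDARG00000002768), a gene for the small calcium buffer parvalbumin, had 615, 666 and 721 CPM in muscle pulldowns, against 13236, 21537 and 18313 CPM in muscle inputs (log2 fold change -4.73 ± 0.38 (SE), adjusted p = 1.5e-05). At the other end jph1a (ENSDARG00000058603), for a junctophilin of the triad, had 12.5, 13.6 and 6.06 CPM in muscle pulldowns, against 6.5, 6.43 and 5.75 CPM in muscle inputs and did not pass (log2 fold change 0.79 ± 0.32 (SE), adjusted p = 0.0536). ryr1b (ENSDARG00000023797), for the very large calcium release channel of skeletal muscle and named here after its values were seen, stood at 0.72 ± 0.23 in muscle without passing, and rose in skin (2.28 ± 0.40) and whole fish (3.76 ± 0.32). Of 11 energy metabolism genes, 10 fell in muscle, 8 in skin and 7 in whole fish. aldoaa (ENSDARG00000011665), a glycolytic aldolase gene, had 262, 254 and 285 CPM in muscle pulldowns, against 10384, 15505 and 10901 CPM in muscle inputs and the lowest value of its list (log2 fold change -5.52 ± 0.38 (SE), adjusted p = 1.1e-05). The myoglobin gene mb (ENSDARG00000031952) was the one not called in muscle (0.87 ± 0.52), with rises in skin (1.36 ± 0.44) and whole fish (2.22 ± 0.41).

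**Figure D5:**
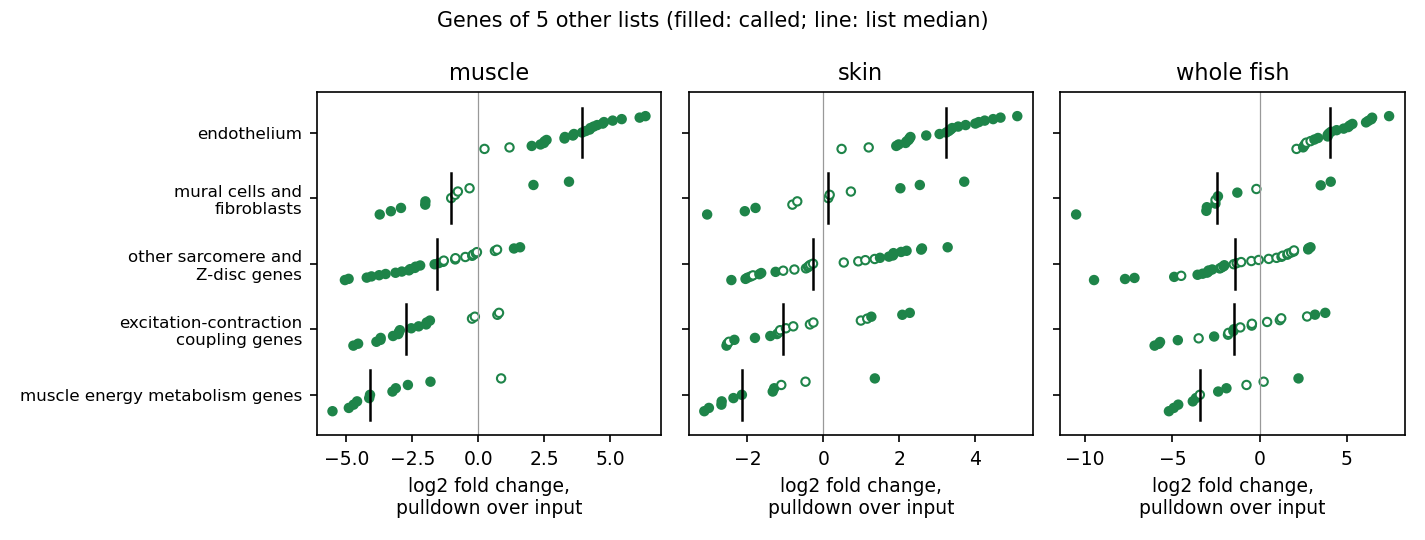
Log2 fold change of pulldown over input (horizontal axis, whose range differs between panels) for the genes of 5 other lists (rows) in muscle, skin and whole fish, with filled points for genes called and a line at each list median. Endothelial genes lie above 0 with medians of 3.93, 3.23 and 4.04, and the energy metabolism genes mostly below 0 with medians of -4.10, -2.15 and -3.43.

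Markers of other cells were followed in the same fits. Over all genes tested, 22.8% rose and 21% fell in muscle, 21.5% and 18.2% in skin, and 11.3% and 15.5% in whole fish. Some of the counts below lie near these shares. Of mural cell and fibroblast genes, 2 rose and 5 fell of 11 tested in muscle, 3 rose and 3 fell of 11 in skin, and 2 rose and 6 fell of 10 in whole fish. Their summed level ran from 2260 to 4610 CPM in muscle pulldowns, against 1044 to 1707 CPM in muscle inputs. rgs5a alone made up most of the muscle pulldown sum, and without it the other genes summed to 278, 218 and 318 CPM in muscle pulldowns, against 1095, 776 and 1349.6 CPM in muscle inputs. In skin the sum of all was 1782 to 2543 CPM in pulldowns, against 1904 to 2557 CPM in inputs. In whole fish it was 1438 to 3097 CPM in pulldowns, against 580 to 874 CPM in inputs. Without rgs5a the sums were 1317, 1290 and 1207 CPM in skin pulldowns, against 2321, 1717 and 1934 CPM in skin inputs. In whole fish they were then 484, 442 and 395 CPM in pulldowns, against 460, 475 and 694 CPM in inputs. Chosen after their values were seen, myh11a (ENSDARG00000009782), the smooth muscle myosin heavy chain gene, rose in muscle (2.09 ± 0.39), skin (3.71 ± 0.30) and whole fish (4.07 ± 0.31), while acta2 (ENSDARG00000045180), the smooth muscle actin gene, fell in muscle (-3.31 ± 0.44), skin (-2.07 ± 0.28) and whole fish (-2.39 ± 0.46). The highest mural gene in muscle was rgs5a (ENSDARG00000002644; 3.44 ± 0.45), a pericyte marker, and the lowest lum (ENSDARG00000045580; -3.73 ± 0.37), a fibroblast proteoglycan gene. Of 5 erythrocyte genes, 1 rose and 3 fell in muscle, 1 rose and 2 fell in skin, and 2 rose and 3 fell in whole fish, with rhag (3.37 ± 0.35) highest and the globin gene hbaa1 (-4.13 ± 0.46) lowest in muscle. Of 9 leukocyte genes, 1 rose and 4 fell in muscle, 5 fell and none rose in skin, and 1 rose and 4 fell in whole fish, with srgn (3.00 ± 0.33) highest and coro1a (-3.98 ± 0.33) lowest in muscle. Leukocyte genes summed to 1212 to 1809 CPM in muscle pulldowns, against 420 to 522 CPM in muscle inputs, but srgn carried that rise. Without srgn the other leukocyte genes summed to 151, 385 and 142 CPM in muscle pulldowns, against 268, 351 and 363 CPM in muscle inputs, lower in 2 of 3 replicates. The part of these cells in the changes of sarcomere genes was not tested.

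Of epidermal genes, which check the skin label, 1 rose and 5 fell of 8 tested in skin, 2 rose and 3 fell of 8 in muscle, and 4 rose and 4 fell of 10 in whole fish, with evpla (1.81 ± 0.57) highest and epcam (-2.84 ± 0.56) lowest in muscle. They summed to 10918 to 17765 CPM in skin pulldowns, against 59624 to 81096 CPM in skin inputs. Muscle inputs held 576 to 899 CPM of the same genes, scaled within muscle, so the gap is only a rough check of the label. Sarcomere genes were nonetheless present in skin inputs, at 1.61% to 4.76% of reads, and the tissue layer they came from is not given in the sources used here. The share of sarcomere reads in skin inputs was highest in replicate 2.

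Members too low to test were 8 in muscle, 5 in skin and 4 in whole fish. Of these, actc1c, tnnt2c and TNNI1 (ENSDARG00000000474) were tested in no tissue, and none of these had more than 49 reads in a library. The heart-type troponin C gene tnnc1a (ENSDARG00000011400) had 2 reads in 1 muscle pulldown and none in the other muscle and skin libraries, while whole fish, which include the heart, had 66, 0 and 0 reads in pulldowns, against 166, 20 and 34 in inputs.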

How the data were processed

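Pulldown and input RNA of adult muscle, skin and whole fish was sequenced as poly(A) libraries (SMART-seq V4, non-directional, paired-end). The authors ran cutadapt and then hisat2 against GRCz11, within lcdb-wf, and deposited raw counts per Ensembl gene; the counting program is not given in the sources used here. Of 36 sample columns, 18 were not used here (liver, heart and brain). Symbols came from a reference table (29201 genes) and, for 5 members, from the study.

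Each tissue was fitted with edgeR 4.0.16 (R 4.3.3): filterByExpr, TMM scaling, a one-sided quasi-likelihood test in each direction and Benjamini-Hochberg adjustment over all genes, and genes were called at an adjusted p under 0.05 once the log2 change reached 1.2. The muscle minus skin difference was an interaction over 12 libraries, tested two-sided at an adjusted p under 0.05. On simulated muscle counts, 171 of 200 changed genes were recovered. As many genes were raised as lowered in that simulation, so it cannot tell how far the calls depend on the scaling. Alternatives were DESeq2 1.42.0, other scalings and filters, a two-sided test, a joint fit, a replicate block and leaving out each library. Same-numbered pulldown and input deviated together in every tissue (r = 0.38 to 0.50 in muscle, 0.40 to 0.43 in skin, 0.15 to 0.18 in whole fish), every same-numbered pair above 0.1, so the numbers were taken to pair the libraries. The fits reported did not use this pairing. Values with the replicate number as a block are printed where they change the call of a named gene within a tissue. For the muscle minus skin difference, those with a block for each lysate are printed. The sources do not say how separate the pools behind the replicates were, and p-values measure the spread between these pools.

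Named genes were the member of highest mean count in each family, the 3 highest and 3 lowest in each tissue, every member enriched, up to 10 of the muscle minus skin difference, and the highest and lowest gene of each other list in muscle. Members and lists were chosen with earlier results of these data known. No 2 libraries of a group agreed within sampling noise (chi-square per gene 27.3 to 326).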

Additional observations from a re-analysis of the deposited data

Results flagged for a closer look

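The pulldown-over-input ratio differed between muscle and skin for 34 of 54 sarcomere genes tested (edgeR quasi-likelihood interaction test with Benjamini-Hochberg adjustment), each lower in muscle. Of all 18669 genes tested, 11.4% were lower in muscle and 12.4% higher. The 10 largest differences among the 34 sarcomere genes, as muscle minus skin on the log2 scale, are given here because the test of the difference itself passed. The fast myosin heavy chain genes stood at -5.43 for myhz1.1, -4.95 for myhz1.3, -4.38 for myhz1.2, -4.07 for myhz2 and -3.65 for myhz1.1l. The slow genes smyhc3 and smyhc2 stood at -3.48 and -3.41. The titin gene ttn.1 stood at -2.86, the light chain gene mylz3 at -2.70 and TNNI2 (ENSDARG00000029069) at -2.67. The mylz3 call was lost without skin input replicate 1. Leaving out 1 library gave 23 to 31 sarcomere genes lower in muscle, against 1126 to 2291 of all genes tested. Scaling by library size alone gave 15, against 334 of all 18669 genes tested.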

How the results depend on the processing

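Of 1867 alternative values computed for the named genes, 1646 kept direction and side of the threshold, 127 no longer passed and 67 newly passed. Another 27 changed sign, 4 of them called before or after and 23 called in neither fit. With scaling by library size alone, 14 sarcomere genes were depleted and 11 enriched in muscle, 4 were depleted in skin, 26 were depleted and 1 enriched in whole fish, and in the muscle minus skin difference 15 were higher in skin and 1 in muscle. Over all genes, that scaling gave 485 depleted and 9249 enriched in muscle and 783 depleted in skin. It gave 4049 depleted and 589 enriched in whole fish, and 334 higher in skin and 5143 in muscle. Under it myom1a (0.25), myhz2 (1.48) and smyhc3 (1.84) changed sign in muscle, which goes with the shift of the median of all genes to 1.79. Without an expression filter 2 members were enriched in muscle, as were 3944 of all 26237 genes tested. With a minimum of 10 counts in every library 3 members were enriched in whole fish, as were 1533 of all 7390 genes tested. A joint fit gave 11 members depleted in skin and 29 in whole fish. Of all 20645 genes tested in that fit, 1388 were depleted in skin and 6889 in whole fish. For these last settings the cause was not tested.

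With the replicate number as a block, 1 member was enriched and 34 depleted in muscle, 16 and 20 in skin, and 5 and 14 in whole fish, the whole fish distance between class medians was 4.49, and 38 members were higher in skin than in muscle. Over all genes, that block gave 3484 enriched and 3448 depleted in muscle and 3778 and 3288 in skin. In whole fish it gave 1339 and 909 over all genes, and 2723 genes were higher in skin than in muscle. A block for each lysate, added after seeing the data, gave 46 members higher in skin and 1 in muscle, against 3638 and 3292 of all 18669 genes tested. Leaving out 1 library gave 1 to 3 members enriched and 32 to 36 depleted in muscle, 13 to 15 and 16 to 26 in skin, 1 to 8 and 12 to 22 in whole fish, and 23 to 31 higher in skin. Over all genes, these fits gave 3177 to 3471 enriched and 2785 to 3155 depleted in muscle, and 3192 to 3712 and 2984 to 3483 in skin. They gave 792 to 2393 enriched and 1548 to 4725 depleted in whole fish, and 1126 to 2291 higher in skin than in muscle. TNNT3 (ENSDARG00000030270) ran from -6.19, without whole fish pulldown replicate 2, to 3.64, without pulldown replicate 1. Without both skin libraries of replicate 2, added after seeing the data, 15 members were enriched and 16 depleted in skin, against 3237 and 2963 of all 17363 genes tested. Classes by protein length were not run, for want of protein sequences here.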

Other observations

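Other myosin heavy chain genes lie outside the symbol rule and were chosen after their counts were seen. myhc4 (ENSDARG00000035438) had 3237, 9029 and 1772 CPM in skin pulldowns, against 215, 421 and 168 CPM in skin inputs, and every pulldown exceeded every input (log2 fold change 4.13 ± 0.62 (SE), adjusted p = 2.5e-04, edgeR quasi-likelihood test). In muscle it had 2064, 2948 and 3079 CPM in muscle pulldowns, against 2880.2, 1896 and 5178 CPM in muscle inputs, with overlapping groups (log2 fold change -0.30 ± 0.40 (SE), adjusted p = 0.573). In whole fish it stood at 0.91 ± 0.45 on the log2 scale and did not pass. myha and myhb, also heavy chain genes, rose in skin (4.52 ± 1.09 and 3.48 ± 0.70) and stood at -0.31 ± 0.38 and -0.27 ± 0.91 in muscle, where neither passed. In whole fish myha rose (log2 fold change 1.41 ± 0.38 (SE), adjusted p = 0.038) and myhb did not pass (1.40 ± 0.53, adjusted p = 0.11).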
